A study of Mus musculus with 12 samples.

Results

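The 4 mouse Notch receptor genes (Notch1, Notch2, Notch3 and Notch4) and 5 genes that the receptors switch on directly (Hes1, Heyl, Hey1, Dtx1 and Nrarp) were followed across T-cell leukaemia of the acute lymphoblastic kind (T-ALL) and normal T-lineage cells of 2 organs. These 9 genes were listed by name, with earlier results of these data known, and looked up by symbol among the 54351 genes of the deposited count table. All 9 were found, and 8 of them had enough counts to be tested. Hey1 did not.

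Notch receptors sit in the cell membrane and bind Delta and Jagged ligands on neighbouring cells. Binding leads to cleavage by an ADAM protease and then by gamma-secretase, and the freed intracellular domain enters the nucleus, where it joins the DNA-binding protein RBPJ and a Mastermind coactivator to switch on target genes. In the thymus Notch1 directs progenitors into the T lineage, its signal declines after the pre-T-cell-receptor checkpoint, and activating NOTCH1 mutations are frequent in human T-ALL.

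RNA was sequenced from 12 samples in 4 groups of 3, all from mice of the C57BL/6 strain. LN3 thymus and LN3 spleen were T-ALL cells of overtly ill mice with the genotype LN3 tg. WT thymocytes were all thymocytes, and WT CD8 were spleen CD8 T cells, obtained by negative enrichment and given as 85 to 95% pure, both from wild-type C57BL/6J mice without tumours. Organs were dissociated mechanically, and the LN3 cells were not enriched, so that they can hold other cells of the organ. The labels give neither the gene carried by the LN3 transgene nor its promoter, and a count per gene does not separate transcripts of a transgene from those of the mouse's own gene. Thymus and spleen leukaemia samples carry the same numbers in their titles, but the labels do not say whether a number marks a mouse, nor that the samples of a group came from separate mice. If thymus and spleen samples came from the same mice, they are not independent. The p-values measure the spread between these samples, which may be technical.

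Levels are CPM, the counts of each library scaled to a common total with edgeR's TMM factors, differences are on the log2 scale, and a gene was called when its adjusted p from edgeR's quasi-likelihood test over 20897 genes was below 0.05. Total counts per library ran from 12694571 to 42483898, and 3 counts, the floor used per library, were worth 0.0657 to 0.262 CPM, which covers counting error only. T-lineage markers summed to between 3851 and 7520 CPM in the 12 libraries, with none of the 9 at 0. Markers of double-positive thymocytes summed to 1637 to 2770 CPM in LN3 thymus, 1562 to 1607 in LN3 spleen, 9778 to 13450.4 in WT thymocytes and 1270 to 2041 in WT CD8. That list shares Cd8a and Cd8b1 with the mature CD8 list. Its Rag1 had means of 513, 258, 4871 and 2.28 CPM in the same 4 groups, and its Cd8a 296, 177, 1845 and 815. Of its 10 genes, 7 were called lower and 0 higher in LN3 thymus against WT thymocytes. In LN3 spleen against WT CD8, 4 were called higher and 2 lower. Markers of mature CD8 T cells summed to 706 to 1151 CPM in LN3 thymus, 942 to 1084 in LN3 spleen, 2323 to 4427 in WT thymocytes and 3682 to 5209 in WT CD8. Of the 10 mature CD8 genes, 5 were called lower and 1 higher in LN3 thymus against WT thymocytes, and 9 lower in LN3 spleen against WT CD8. Over all tested genes, 5.21% were called lower and 6.06% higher in the first comparison, and 13% and 17.9% in the second. Early thymocyte markers, which include Il2ra and Ptcra, summed to 210 to 493 CPM in LN3 thymus and 110 to 470 in LN3 spleen. In WT thymocytes they summed to 92.3 to 156 CPM and in WT CD8 to 132 to 499. Of these 7 genes, 1 was called higher and 3 lower in the first comparison, and 2 higher and 1 lower in the second. The part of these cell-type and stage markers in the differences of leukaemia from normal cells was not tested. One annotated ribosomal RNA gene, CT010467.1, took 4.61 to 10.5% of the counts in 6 libraries (LN3 thymus 2 and 3, LN3 spleen 1 to 3 and WT thymocytes 3) and 0.440 to 1.45% in the other 6. That split coincides with the groups in the spleen comparison, where the 2 cannot be told apart.

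Both comparisons of leukaemia with normal cells had Notch1, Notch3, Hes1 and Heyl higher in the LN3 cells. Dtx1 was also higher in LN3 thymus than in WT thymocytes. Of the 8 tested genes, 5 rose and 0 fell in LN3 thymus, against 6.06% of all tested genes called higher and 5.21% called lower. In LN3 spleen against WT CD8, 4 rose and 1, Notch2, fell, against 17.9% called higher and 13% called lower. At an unadjusted p below 0.05, 5 were higher and 1 lower in the thymus, and DESeq2, limma-voom and limma on the deposited log2 values each called 0 lower there. The median difference of the 8 genes was 2.20 in the thymus and 1.81 in the spleen, beside -0.04 and -0.11 over all tested genes. These 10 calls held under all 24 alternative settings, none of which separates the CT010467.1 split from the groups in the spleen.

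**Figure D1:**
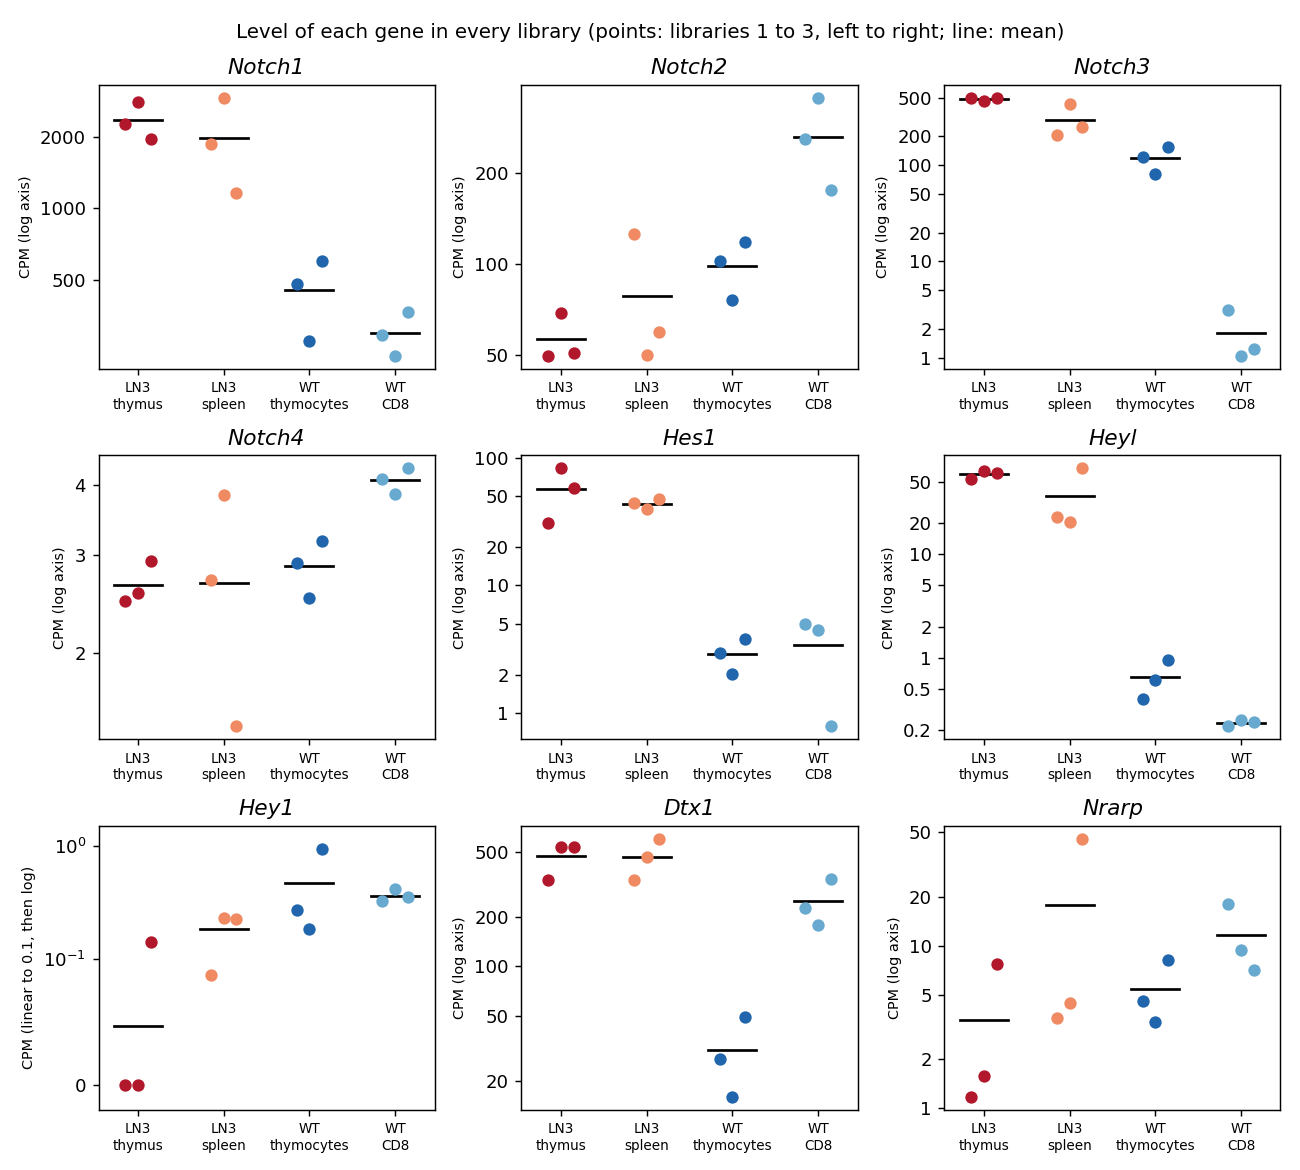
Level of each of the 9 genes in CPM in every library, with a point for each of libraries 1 to 3 and a line at the mean of the group; axes are logarithmic, apart from the Hey1 axis, which is linear up to 0.1. The 6 LN3 libraries lie above all 6 normal libraries for Notch1, Notch3, Hes1 and Heyl, whereas Dtx1 in WT CD8 reaches the level of the lowest LN3 library.

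Notch1 (chromosome 2, 26457903 to 26516663, minus strand, GRCm38), the main receptor of T-cell progenitors, stood at 2267, 2798 and 1950.5 CPM in libraries 1 to 3 of LN3 thymus. It was at 1857, 2908 and 1156 CPM in LN3 spleen. The normal cells held 483, 279 and 599 CPM in WT thymocytes and 294, 241 and 368 CPM in WT CD8. The lowest LN3 library thus lay above the highest normal one, and the 2 LN3 groups overlapped, as did the 2 normal groups. In the thymus group means were 2339 ± 428 and 454 ± 162 CPM (SD, n = 3 here and below), a 5.15-fold rise (edgeR log2 difference of 2.37 with an SE of 0.39, adjusted p = 0.00231). In the spleen they were 1974 ± 881 CPM for LN3 and 301 ± 63.9 CPM for WT CD8, a 6.56-fold rise (log2 difference of 2.71 with an SE of 0.40, adjusted p = 0.00041). Against WT thymocytes the spleen leukaemia was 4.35-fold higher (log2 difference 2.12, adjusted p = 0.00349). The WT thymocytes are then a shared control, and the values are given side by side only.

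Notch3 (chromosome 17, 32120820 to 32166852, minus strand), a receptor found in immature thymocytes and in smooth muscle around vessels, held 503, 469.5 and 497 CPM in LN3 thymus. In LN3 spleen it held 205, 433 and 252 CPM. WT thymocytes had 122, 80.7 and 155 CPM, and WT CD8 only 3.11, 1.04 and 1.23 CPM. The order LN3 thymus, LN3 spleen, WT thymocytes, WT CD8 was free of overlap between neighbours. The fit called the difference of WT thymocytes from each neighbour in that order, but not that between LN3 spleen and LN3 thymus (log2 difference -0.72, 95% interval -1.58 to 0.13, adjusted p = 0.689). LN3 thymus was 4.11-fold above WT thymocytes (log2 difference 2.04, SE 0.41, adjusted p = 0.00703). LN3 spleen was 170-fold above WT CD8 (log2 difference 7.41, SE 0.53, adjusted p = 2.62e-06), and the difference was 8.03 without WT CD8 library 1.

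Against WT thymocytes, the spleen leukaemia had 2.49-fold more Notch3 (log2 difference 1.32, SE 0.40, adjusted p = 0.037). The call ended when any of LN3 spleen 2 (adjusted p = 0.115), LN3 spleen 3 (0.0681), WT thymocytes 1 (0.104) or WT thymocytes 2 (0.122) was left out. It also ended with scaling to library totals (0.0908) or upper quartiles (0.0686), with only the groups compared in the fit (0.0501) and with the CT010467.1 split as a term (0.134). Mural and fibroblast markers, which include vessel smooth muscle genes, summed to 7.499 to 255 CPM in LN3 spleen, 17.2 to 124 in LN3 thymus and 4.91 to 24.3 in WT thymocytes. Their part in the Notch3 values was not tested.

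The windows of up to 250 bases before the RefSeq starts of these 2 receptors, Notch1 and Notch3, are shown as sequence only. Capitals mark matches, on either strand, to CACNAG, the N-box letters that Hes proteins can bind. The Notch1 window (GRCm38.p6, chr2:26503825-26504072, minus strand) lies within the span of the annotated gene, since longer annotated transcripts start further upstream. The Notch3 window is chr17:32166891-32167140, minus strand. Sequences are from RefSeq and run 5′ to 3′.
Notch1: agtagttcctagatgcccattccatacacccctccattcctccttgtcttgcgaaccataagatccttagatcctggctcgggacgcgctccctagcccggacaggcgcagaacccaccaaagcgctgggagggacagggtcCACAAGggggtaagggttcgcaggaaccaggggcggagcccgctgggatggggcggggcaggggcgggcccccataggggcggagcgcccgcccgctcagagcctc
Notch3: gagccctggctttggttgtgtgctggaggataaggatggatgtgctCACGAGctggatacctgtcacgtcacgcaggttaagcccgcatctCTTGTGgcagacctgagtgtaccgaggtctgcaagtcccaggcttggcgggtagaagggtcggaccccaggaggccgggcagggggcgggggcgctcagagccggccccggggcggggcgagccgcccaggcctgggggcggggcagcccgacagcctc
Of the 9 genes, 6 had a window in the RefSeq table (Notch1, Notch2, Notch3, Notch4, Dtx1 and Nrarp). Over the whole 250 bases, CACNAG was found for 5 of the 6, all but Notch4, and in 36.67% of 32851 mouse promoter windows of the same length. For Dtx1 the 250 bases were all left out by the trimming of annotated transcript used for the windows above, so its match does not count there, and 4 of the other 5 genes had one in the trimmed windows. In Notch1 the match starts 108 bases before the start of transcription, and in Notch3 there were matches at 204 and 159 bases. TGGGAA, the core letters of RBPJ sites, was found on neither strand in the 6 windows and in 21.59% of all windows. Notch2, which was lower in LN3 spleen, and Nrarp, which was not called, had matches as well. These matches are letters in a window and were not measured as binding. Their part in the levels was not tested. As given above, a count per gene does not separate transcripts of a transgene, whose promoter the labels do not give.

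Notch2 (chromosome 3, 98013527 to 98150361, plus strand), a receptor with a known part in marginal zone B cells and myeloid cells, had the opposite order. WT CD8 held 258, 353 and 175 CPM, and WT thymocytes 102, 75.8 and 118 CPM. LN3 spleen held 125, 49.9 and 59.4 CPM and LN3 thymus 49.6, 68.7 and 50.6 CPM. All 3 WT CD8 libraries stood above every other library, and LN3 spleen overlapped both thymus groups. In the spleen the mean went from 262 ± 89.0 CPM in WT CD8 to 78.2 ± 41.1 CPM in LN3, and Notch2 fell by 1.75 (adjusted p = 0.00396, SE 0.37). In LN3 thymus its level was below WT thymocytes in every library but did not pass the test (log2 difference -0.81, unadjusted p = 0.0445, adjusted p = 0.188).

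Markers of other blood cells varied with Notch2 in part of the libraries. Of the LN3 libraries, LN3 spleen 1, with 125 CPM of Notch2, had the highest sums of B cell markers (2225 CPM), myeloid markers (1394 CPM) and dendritic cell markers (1218 CPM). Myeloid markers summed to 1223, 2952 and 203 CPM in WT CD8 libraries 1 to 3, in the same order as their Notch2. B cell markers (1130, 1473 and 510 CPM) had that order too, whereas dendritic cell markers (1188, 609 and 105 CPM) did not. In LN3 thymus libraries 1 to 3, myeloid markers summed to 52.3, 169 and 326 CPM and did not follow Notch2. Of the 9 myeloid genes, none was at 0 in any group. Without LN3 spleen 1 the spleen difference was -2.24 (adjusted p = 0.0011). How much of the Notch2 came from such cells was not tested. In bulk RNA, fewer cells of a type and less RNA per cell cannot be told apart.

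Notch4 (chromosome 17, 34564268 to 34588503, plus strand), known from endothelium, was at 1.48 to 4.29 CPM in all 12 libraries. The 3 WT CD8 libraries (4.10, 3.86 and 4.29 CPM) lay above all others, the nearest being LN3 spleen 2 at 3.85 CPM. None of its differences was called by edgeR, DESeq2, limma-voom or limma on the deposited values, and 0 had an unadjusted p below 0.05. Endothelial markers summed to 101 to 218 CPM over the 12 libraries, with Emcn at 0 in LN3 spleen.

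To compare receptors with each other, CPM were divided by the length of the longest coding transcript in kb. The 4 receptors together came to 313 ± 44.1 CPM per kb in LN3 thymus and 253 ± 105 in LN3 spleen. The sum was 72.5 ± 23.8 in WT thymocytes and 57.5 ± 1.93 in WT CD8. The lowest LN3 library (159 CPM per kb) exceeded the highest normal one (94.2). Notch1 made up 78.3 ± 3.27% of the receptor sum in LN3 thymus and 81.4 ± 4.16% in LN3 spleen, beside 65.4 ± 2.55% in WT thymocytes and 55.4 ± 13.2% in WT CD8. Notch2 made up 1.71 ± 0.147% in LN3 thymus, 3.32 ± 1.92% in LN3 spleen, 13.3 ± 1.79% in WT thymocytes and 43.1 ± 13.3% in WT CD8. Notch3 was 19.8 ± 3.29% of the sum in LN3 thymus and 20.6 ± 0.735% in WT thymocytes, so its share in the thymus was alike while its level was not. It was 15.2 ± 4.41% in LN3 spleen and 0.392 ± 0.257% in WT CD8. The WT CD8 libraries thus held Notch1 and Notch2 RNA with hardly any Notch3, and the LN3 spleen libraries Notch1 and Notch3 with little Notch2. In WT CD8 libraries 1 to 3 the Notch2 share was 43.4, 56.3 and 29.7%. That is the order of the myeloid marker sums above but not of the dendritic cell ones. The part of such cells in the share was not tested.

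**Figure D2:**
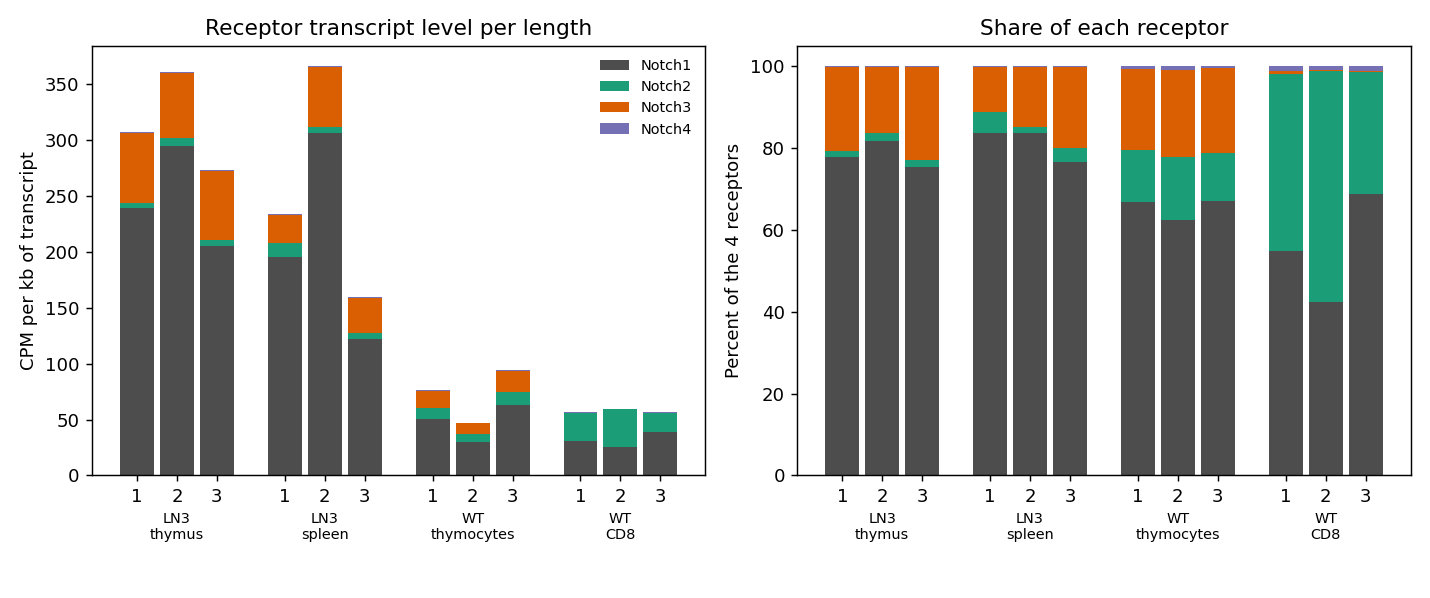
Summed receptor level in CPM per kb of transcript (left) and the percent of that sum due to each receptor (right), with a stacked bar for each of libraries 1 to 3 of the 4 groups. The LN3 bars reach 159 to 366 CPM per kb and the normal bars 47.1 to 94.2, and Notch2 fills 29.7 to 56.3% of the WT CD8 bars.

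Hes1 (chromosome 16, 30064384 to 30067796, plus strand) encodes a helix-loop-helix repressor that is a classic direct Notch target. It stood at 30.9, 82.6 and 58.3 CPM in LN3 thymus and at 44.6, 39.4 and 47.2 CPM in LN3 spleen. WT thymocytes held 2.97, 2.02 and 3.79 CPM, and WT CD8 held 4.97, 4.46 and 0.788 CPM. The LN3 and normal groups were far apart, and within each genotype the 2 organs overlapped. Hes1 was 19.6-fold higher in LN3 thymus (log2 difference 4.29, SE 0.61, adjusted p = 0.000889) and 12.97-fold higher in LN3 spleen than in WT CD8 (log2 difference 3.70, SE 0.59, adjusted p = 0.000721). With the CT010467.1 split as a term, the spleen difference was 2.78 (adjusted p = 0.0335). Only the thymus libraries estimate that term, so it cannot separate the split from the groups in the spleen.

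Heyl (chromosome 4, 123233556 to 123249875, plus strand), a repressor of the Hey family, had the largest difference of the 8 genes in the thymus. LN3 thymus held 53.6, 63.2 and 60.1 CPM, and LN3 spleen 22.7, 20.5 and 67.4 CPM. It was close to the floor in normal cells, at 0.405, 0.613 and 0.946 CPM in WT thymocytes and 0.219, 0.253 and 0.241 CPM in WT CD8, from 4 to 11 counts a library. The log2 difference was 6.50 in the thymus (SE 0.54, adjusted p = 2.05e-05) and 7.23 in the spleen (SE 0.56, adjusted p = 5.06e-06). Without LN3 spleen 3, the highest library, the spleen difference was 6.47 (adjusted p = 2.11e-06). On the deposited log2 values the differences were 5.29 in the thymus and 5.57 in the spleen. WT CD8 lay below WT thymocytes in all libraries, a difference that was not called (log2 difference -1.41, adjusted p = 0.107) except without LN3 spleen 3 (adjusted p = 0.0201).

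Hey1 (chromosome 3, 8663359 to 8667256, minus strand), of the same family, was not part of that rise. Its counts summed to 5 in LN3 thymus, where 2 of the 3 libraries had none, 13 in LN3 spleen, 18 in WT thymocytes and 35 in WT CD8. These sums are not scaled for depth. Mean levels in the same order were 0.0469, 0.182, 0.467 and 0.363 CPM. No library exceeded 0.946 CPM. With no filter on low counts, the thymus difference was -2.71 (adjusted p = 0.115) and the spleen difference -0.87 (adjusted p = 0.514).

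Dtx1 (chromosome 5, 120680202 to 120711927, minus strand) encodes Deltex, a ubiquitin ligase that binds the Notch intracellular domain. Its levels were 337, 541 and 538 CPM in LN3 thymus and 339, 469 and 605 CPM in LN3 spleen. In WT thymocytes it was at 27.0, 15.9 and 48.9 CPM, but in WT CD8 at 228, 181 and 343 CPM. WT thymocytes therefore stood apart below the 9 other libraries, and WT CD8 overlapped both LN3 groups. Dtx1 was 15.5-fold higher in LN3 thymus than in WT thymocytes (log2 difference 3.95, SE 0.45, adjusted p = 0.000213) and 8.21-fold higher in WT CD8 than in WT thymocytes (log2 difference 3.04, adjusted p = 0.000594). LN3 spleen and WT CD8 differed by 0.91 (95% interval 0.05 to 1.77, adjusted p = 0.0982). That difference was called without WT thymocytes 3 (adjusted p = 0.0418), with only the 2 groups in the fit (0.0495) and without the 3 libraries highest in CT010467.1 (0.0257). It was -0.02 with the CT010467.1 split as a term (adjusted p = 0.982), which only the thymus libraries estimate.

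Nrarp (chromosome 2, 25180758 to 25183339, plus strand), which encodes an ankyrin repeat protein that limits the Notch signal, did not share the rise of Hes1, Heyl and Dtx1. LN3 thymus held 1.18, 1.57 and 7.72 CPM, and LN3 spleen 3.58, 4.43 and 45.2 CPM. WT thymocytes held 4.59, 3.37 and 8.17 CPM, and WT CD8 18.1, 9.43 and 7.09 CPM. Every pair of groups overlapped, and LN3 spleen 3 alone was high. No Nrarp difference was called by edgeR or the 3 other tools. That of LN3 spleen against LN3 thymus was 2.32 (unadjusted p = 0.0311, adjusted p = 0.475), the only one of the 8 genes with an unadjusted p below 0.05 there. The spleen difference was 0.62 with all libraries and -1.51 without LN3 spleen 3.

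Between the organs, the leukaemia showed no called difference in the 8 genes. In LN3 spleen against LN3 thymus 0 were higher and 0 lower by edgeR, and 0 by DESeq2, limma-voom or limma on the deposited values, where 0.694% of all genes were called higher and 0.0287% lower. The intervals still allowed sizeable differences, from -1.05 to 0.56 for Notch1, -1.52 to 0.74 for Hes1, -1.56 to 0.20 for Heyl and -0.86 to 0.85 for Dtx1. Erythroid markers summed to 1621 to 5643 CPM in LN3 spleen, 9.15 to 142 in LN3 thymus, 36.9 to 623 in WT CD8 and 13.9 to 3933 in WT thymocytes. Of these 7 genes, 3 were called higher in LN3 spleen than in LN3 thymus and 3 higher than in WT CD8. In the latter comparison 17.9% of all tested genes were called higher. The part of the erythroid markers in the values of the 8 genes was not tested. Normal cells of the 2 organs did differ. In WT CD8 against WT thymocytes 2 genes rose, Notch2 and Dtx1, and 1 fell, Notch3, beside 7.24% of all genes called higher and 8.49% lower. Notch3 fell by 6.09 (SE 0.50, adjusted p = 1.88e-05). Notch2 rose by 1.41 (adjusted p = 0.0202), a call lost without WT thymocytes 1 (adjusted p = 0.0769), WT thymocytes 2 (0.0811), WT CD8 1 (0.0615) or WT CD8 2 (0.0885). Without WT CD8 1, the Notch3 difference was -6.71. The part of the mature CD8 marker levels given above in these differences was not tested.

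For 2 genes the difference of leukaemia from normal cells was not the same in the thymus and spleen comparisons. Organ and kind of normal cell (all thymocytes or enriched splenic CD8 cells) cannot be told apart there. The interaction, which is the spleen difference minus the thymus difference, was 5.37 for Notch3 (SE 0.60, adjusted p = 0.000741) and -3.04 for Dtx1 (SE 0.57, adjusted p = 0.01). In all tested genes 3.29% had a called positive interaction and 0.895% a called negative one. For both genes, LN3 levels in the 2 organs lay within 1.65-fold of each other, while the 2 normal groups lay far apart. Against the common control of WT thymocytes, 5 of 8 genes rose in LN3 spleen and 0 fell, with 11.3% of all genes called higher and 8.52% lower. There Dtx1 was 15.4-fold higher (log2 difference 3.95, adjusted p = 0.000217), Hes1 14.98-fold (3.91, adjusted p = 0.00132) and Heyl 56.8-fold (5.83, adjusted p = 4.36e-05), beside 15.5-fold, 19.6-fold and 90.8-fold in LN3 thymus. Without LN3 spleen 3, the Heyl difference there was 5.06. At an unadjusted p below 0.05, 0 were lower, and DESeq2, limma-voom and limma on the deposited values each called 0 lower.

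**Figure D3:**
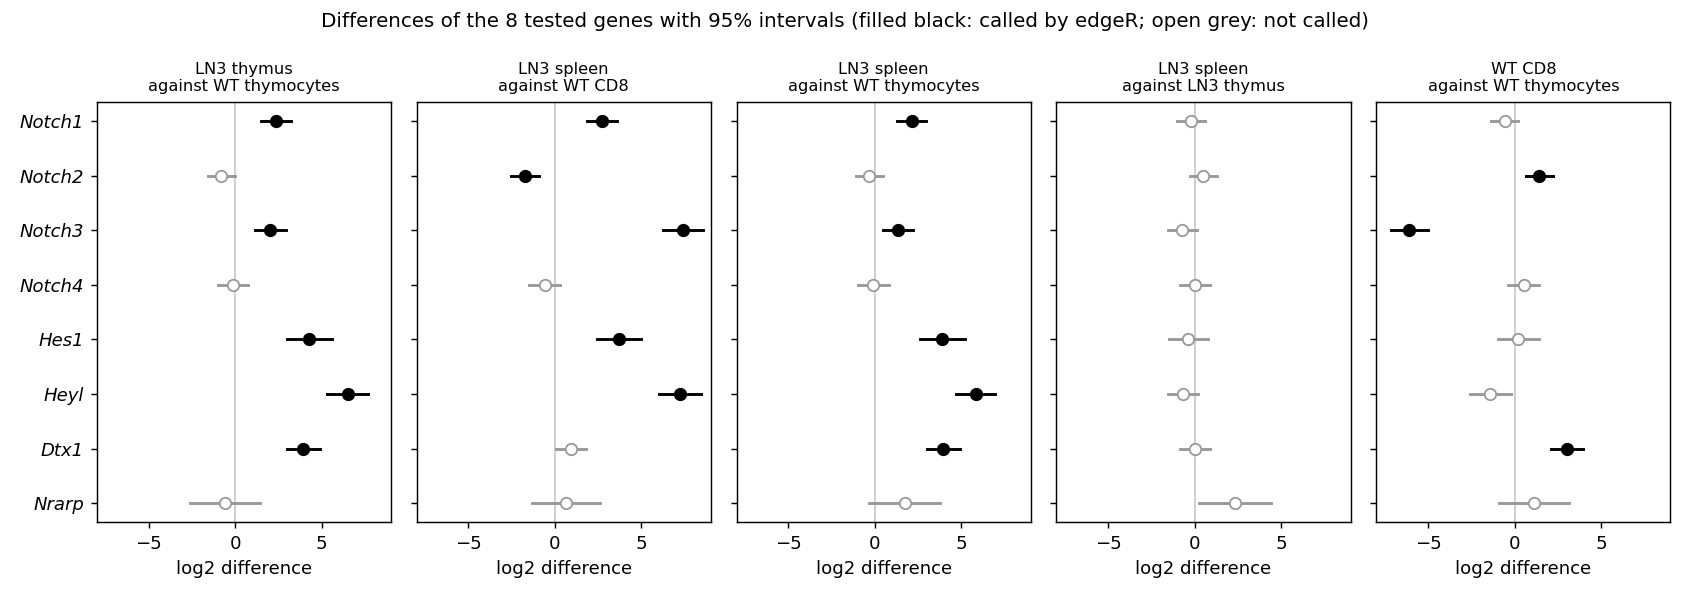
Log2 differences of the 8 tested genes in 5 comparisons, with 95% intervals, filled where edgeR called the difference and open where it did not. Notch3 and Dtx1 change place between the first and second panels, at 2.04 and 7.41 for Notch3 and 3.95 and 0.91 for Dtx1, and in the panel of LN3 spleen against LN3 thymus every symbol is open.

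The thymus differences were also computed within the CT010467.1 split, as differences of the mean over libraries of log2 of CPM plus 0.1. There were 1 LN3 and 2 WT libraries of low share and 2 LN3 and 1 WT library of high share. Each side thus has an arm of 1 library, and the values have no spread and no test. Among low-share and high-share libraries the differences were 2.63 and 1.96 for Notch1, 2.34 and 1.64 for Notch3, 3.60 and 4.16 for Hes1, 6.48 and 5.88 for Heyl, and 4.02 and 3.46 for Dtx1. They were -0.82 and -0.997 for Notch2, -0.12 and -0.21 for Notch4, and -1.66 and -1.19 for Nrarp. No such value can be had for the spleen.

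A wider list of 76 Notch pathway genes was examined by role, of which 75 were in the table and 67 were tested. In the thymus 8 rose and 8 fell (11.9% each), and in the spleen 14 rose (20.9%) and 10 fell (14.9%), to be read beside the shares of all genes above. Their medians were -0.02 and 0.03. Most of the 67 genes were not called in either comparison, and the spleen shares lay near those of all tested genes.

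Ligand genes had low counts. Of 6 ligand genes 3 were tested, and 0 were called in the thymus or the spleen by edgeR, by the 3 other tools or at an unadjusted p below 0.05. The highest mean level among them in the thymus was that of Jag2, at 6.31 CPM in LN3 thymus and 11.1 in WT thymocytes (log2 difference -0.81, adjusted p = 0.353).

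Of 15 tested genes of receptor maturation and cleavage, 1 fell in the thymus and 2 in the spleen. Beside them, 5.21% of all tested genes were called lower in the thymus and 13% in the spleen, so the counts are no result about the list. Lfng, a glycosyltransferase that modifies Notch and changes its response to ligands, was at 2.44, 10.8 and 16.1 CPM in LN3 thymus and 42.4, 29.0 and 97.7 CPM in WT thymocytes. It was at 37.6, 20.2 and 9.51 CPM in LN3 spleen and 298, 222 and 330.0 CPM in WT CD8. The groups did not overlap in either comparison. Lfng fell by 3.66 in the spleen (SE 0.69, adjusted p = 0.00197), a call that held under all 24 alternatives. In the thymus it fell by 2.52 (SE 0.66, adjusted p = 0.0267), a call lost in 7 of 24, among them without LN3 thymus 1, LN3 thymus 2 or WT thymocytes 3 (adjusted p = 0.0606 to 0.103). Psen2, a catalytic subunit of gamma-secretase, fell by 1.11 in the spleen (adjusted p = 0.0492), lost in 12 of 24 alternatives, among them without any single library of LN3 thymus or WT CD8, LN3 spleen 2 or 3 or WT thymocytes 1 (adjusted p = 0.0557 to 0.187).

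Among 18 tested genes of the nuclear complex and its corepressors, 1 rose and 3 fell in the thymus, and 4 rose and 5 fell in the spleen. All tested genes had 6.06% higher and 5.21% lower in the thymus, and 17.9% and 13% in the spleen. Tle4, a Groucho-family corepressor, fell by 3.17 in the thymus, the mean going from 38.2 ± 3.13 to 4.22 ± 2.35 CPM (adjusted p = 0.00144, SE 0.49). It fell by 3.45 in the spleen, the mean going from 110.4 ± 19.7 to 10.2 ± 5.62 CPM (adjusted p = 0.000347, SE 0.49). Of the Mastermind coactivators, Maml3 and Maml2 went in opposite directions in both comparisons. Maml1 was not called in the spleen (log2 difference -0.10, adjusted p = 0.796). Maml3 rose by 1.66 in the thymus (adjusted p = 0.00491), to 47.6 ± 13.7 from 15.05 ± 3.68 CPM, and Maml2 fell by 2.80 in the spleen (adjusted p = 0.000108), to 11.9 ± 2.63 from 83.0 ± 18.7 CPM. These calls, and that of Rbpj, the DNA-binding partner of Notch, held under all 24 alternatives. Rbpj rose 1.99-fold in the spleen, from 73.8 ± 2.60 to 147 ± 19.1 CPM (adjusted p = 0.0027). Calls lost under some alternatives were Maml2 (7 of 24) and Spen (8 of 24) lower in the thymus, Maml3 (8 of 24) and Hdac1 (3 of 24) higher in the spleen, and Tle1 (8 of 24) lower there. The libraries whose omission ended them were LN3 thymus 1 or 2 or WT thymocytes 1 or 2 for Maml2, any LN3 thymus library, WT thymocytes 1 or 3 or WT CD8 1 for Spen, and LN3 spleen 3 or WT CD8 1 for Hdac1. For Maml3 they were LN3 spleen 2 or any WT CD8 library, and for Tle1 LN3 spleen 2 or 3, WT thymocytes 1 or 2 or WT CD8 1 or 3.

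Of 14 tested genes of receptor trafficking and turnover, 2 rose and 1 fell in the thymus, and 1 rose and 1 fell in the spleen. The shares of all tested genes were 6.06% higher and 5.21% lower in the thymus, and 17.9% and 13% in the spleen. With so few genes called, the counts are no result about the list. Dtx4, a relative of Dtx1, followed its pattern across the groups. Its level was 14.2 ± 5.93 CPM in LN3 thymus, 14.2 ± 1.24 in LN3 spleen and 12.5 ± 0.552 in WT CD8, but 2.39 ± 0.664 in WT thymocytes. Dtx4 rose by 2.57 in the thymus (SE 0.39, adjusted p = 0.0013), and its interaction was -2.39 (adjusted p = 0.0215). Nedd4, a ubiquitin ligase, rose by 1.65 in the spleen (SE 0.25, adjusted p = 0.000485), to 363 ± 94.2 from 115 ± 19.9 CPM. Mib1, a ligase that activates ligands, rose by 1.54 in the thymus (adjusted p = 0.0239, lost in 5 of 24 alternatives, among them without LN3 thymus 1 or 3). Cbl fell by 1.11 there (adjusted p = 0.0176, lost in 4 of 24, among them without LN3 thymus 2 or 3 or WT thymocytes 1). Dtx3l fell by 0.75 in the spleen (adjusted p = 0.0362), a call lost in 13 of 24 alternatives, among them without LN3 thymus 2 or 3, LN3 spleen 1 or 3, WT thymocytes 1 or 2 or WT CD8 2 or 3 (adjusted p = 0.0507 to 0.146).

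The 7 other Hes and Hey genes did not share the rise of Hes1 and Heyl. Only 3 were tested, with 0 called in the thymus by edgeR, by the 3 other tools or at an unadjusted p below 0.05, and 1, Hes7, lower in the spleen (2.60 ± 0.599 to 0.606 ± 0.0913 CPM, adjusted p = 0.0324). That call was lost in 8 of 24 alternatives, among them without any single library of LN3 spleen or WT CD8 or WT thymocytes 1. In the spleen 13% of all tested genes were called lower.

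Of 14 tested genes known as Notch targets in T-lineage cells, 5 rose and 3 fell in the thymus, and 9 rose and 1 fell in the spleen. Over all tested genes, 6.06% were called higher and 5.21% lower in the thymus, and 17.9% and 13% in the spleen. Ccnd1, which encodes cyclin D1, was at 73.2, 102 and 147 CPM in LN3 thymus and 95.0, 208 and 213 CPM in LN3 spleen. It was at 5.61, 4.29 and 7.83 CPM in WT thymocytes and 17.4, 9.24 and 2.01 CPM in WT CD8. Every LN3 library was higher than every normal one. The log2 differences of Ccnd1 were 4.19 in the thymus (SE 0.65, adjusted p = 0.00164) and 4.18 in the spleen (SE 0.65, adjusted p = 0.000631), the latter 4.95 without WT CD8 1. The growth-promoting transcription factor gene Myc was at 305 ± 85.7 CPM in LN3 thymus and 327 ± 12.8 in LN3 spleen, against 66.2 ± 23.7 in WT thymocytes and 77.3 ± 13.5 in WT CD8. Myc rose by 2.21 in the thymus (edgeR adjusted p = 0.000682) and by 2.08 in the spleen (adjusted p = 0.000368). Both calls of Ccnd1 and the thymus call of Myc held under all 24 alternatives. The spleen call of Myc was not among those followed under the alternatives.

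Il2ra, the alpha chain of the interleukin 2 receptor, was at 441, 218 and 184 CPM in LN3 thymus and 52.9, 39.6 and 58.0 CPM in WT thymocytes. In LN3 spleen it was at 41.2, 42.5 and 352 CPM, with library 3 high, and in WT CD8 at 14.2, 7.28 and 7.18 CPM. The spleen call held under all 24 alternatives (log2 difference 3.93, SE 0.77, adjusted p = 0.00264), with a difference of 2.14 without LN3 spleen 3. The thymus call (log2 difference 2.49, adjusted p = 0.0434) was lost in 14 of 24, among them without any single library of LN3 thymus, WT thymocytes or WT CD8 (adjusted p = 0.0507 to 0.13). Ptcra, the pre-T-cell-receptor alpha chain, was at 24.9, 3.68 and 24.7 CPM in LN3 spleen and 0.219, 0.348 and 0.394 CPM in WT CD8 (log2 difference 5.72, SE 0.99, adjusted p = 0.00122). In LN3 thymus (43.7, 47.6 and 4.03 CPM) it overlapped WT thymocytes (25.7, 14.8 and 41.7 CPM).

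The targets that fell were Il7r, Ccnd3 and Bcl11b. Il7r, the interleukin 7 receptor chain, fell by 2.88 in the thymus, the mean going from 50.1 ± 27.1 to 6.75 ± 2.15 CPM (adjusted p = 0.00543, SE 0.55). In the spleen it fell by 5.29, the mean going from 547 ± 252 to 14.1 ± 9.04 CPM (adjusted p = 9.54e-05, SE 0.61), and the difference was -5.92 without LN3 spleen 1. Ccnd3, cyclin D3, fell by 1.88 in the thymus, the mean going from 1033 ± 483 to 282 ± 106 CPM (adjusted p = 0.00937). These calls held under all 24 alternatives. Bcl11b, a T-lineage commitment factor, fell by 1.14 in the thymus (adjusted p = 0.0127), a call lost in 5 of 24, among them without LN3 thymus 2 or 3 or WT thymocytes 1 (adjusted p = 0.0584 to 0.0615).

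**Figure D4:**
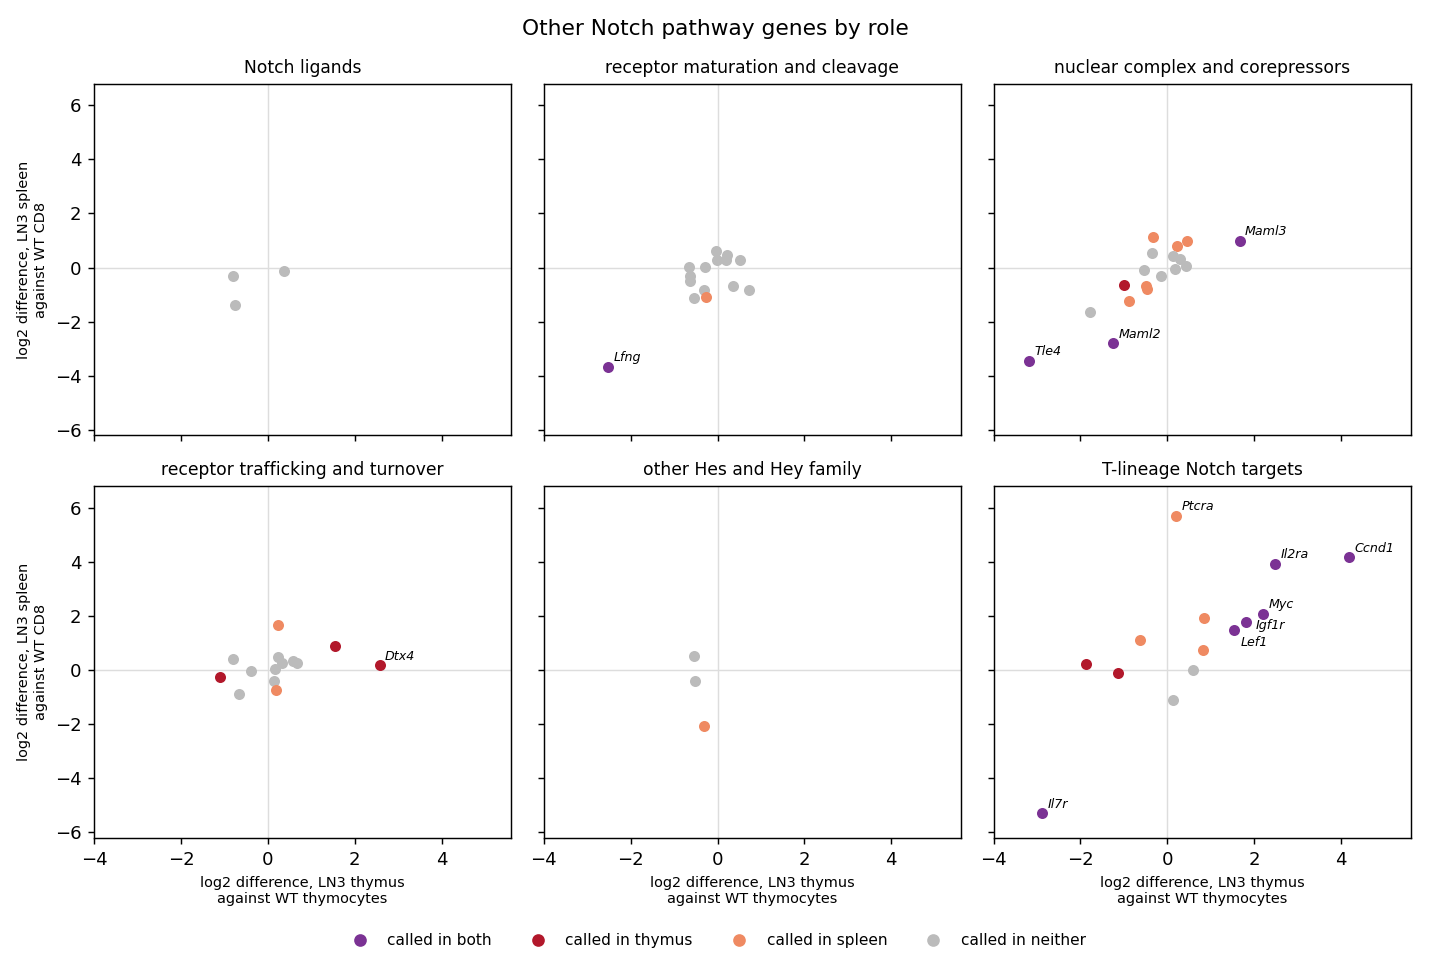
Log2 difference in the thymus (horizontal) and in the spleen (vertical) for each tested pathway gene, in a panel for each role, with colour giving where edgeR called the gene. Ccnd1 lies at 4.19 and 4.18, Il7r at -2.88 and -5.29 and Tle4 at -3.17 and -3.45, while the ligand panel holds no called gene.

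The genes whose log2 CPM followed a member most closely over the 12 libraries were named from 9519 tested genes of sufficient level, by Pearson's r and with no test. The libraries share their groups, so that a high r mostly restates the group pattern. Notch1 was followed by Phldb1 (r = 0.973), Ptgfrn (0.973) and Mmp14 (0.972). Heyl was followed by Pdgfrb (0.992), Mpzl2 (0.987) and Espnl (0.981), and Hes1 by Maged1 (0.984), Tmem176b (0.976) and Sbf2 (0.973). Pdgfrb, a growth factor receptor gene, stood at 632 CPM in LN3 thymus, 494 in LN3 spleen, 6.45 in WT thymocytes and 1.96 in WT CD8. Notch3 was followed by 5830418P13Rik (0.994), Il17rb (0.990) and Ston1 (0.987). Dtx1 was followed by Rnf144a (0.974), Adam19 (0.969) and Irak1 (0.968), and Notch2 by Myo1f (0.953), Adgre5 (0.951) and Pqlc3 (0.950). Closest to Notch4 was Fam160a2 (0.949), and closest to Nrarp was Sec11c (0.918).

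Among the members themselves, the closest pairs were Hes1 and Heyl (r = 0.941), Notch1 and Heyl (0.929) and Notch1 and Hes1 (0.892) over the 12 libraries. Notch2 and Notch3 ran in opposite directions (r = -0.900). Nrarp followed none of the others closely, with r from -0.404 to 0.332.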

How the data were processed

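Per the submitters' processing notes, FastQC, kallisto 0.46.1, DESeq2 and the genome build GRCm38 were used. Per the labels, RNA was poly(A)-selected and libraries kept the strand. The annotation release and the use of strand in counting are not given in those sources. The authors deposited estimated counts per gene, all 100% already whole and rounded again here, and variance-stabilized log2 values, used only in an alternative test. Estimation shares reads between near-identical transcripts.

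Fits used edgeR 4.0.16 in R 4.3.3: filterByExpr (minimum count 10), TMM, 4 group means over 12 libraries (8 residual degrees of freedom), robust quasi-likelihood tests and Benjamini-Hochberg adjustment over 20897 genes, with a threshold of 0.05. The code was tested on simulated data with less spread between libraries than these data, so it is no check of call rates here. Gene positions and transcript lengths are from GENCODE M21. Members and lists were chosen with earlier results of these data known. Named pathway genes are, per list, up to 3 called in each direction with the largest change in the thymus or spleen comparison, and those with a called interaction. Most alike genes are the 3 with the highest r (prior count 2, mean log2 CPM of at least 3). Alternatives were other scalings, no filter, DESeq2 1.42.0, limma 3.58.1, smaller fits, replicate blocks, each library left out and, chosen after seeing the data, 2 that treat the CT010467.1 split. Tle5 was not found among the gene names. Replicates of a group differed beyond sampling noise.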

Additional observations from a re-analysis of the deposited data

Results flagged for a closer look

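Among the receptors and targets, the difference of leukaemia from normal cells was not the same in the 2 organs for 2 genes, by the interaction term of the edgeR fit. The value was 5.37 for Notch3 (adjusted p = 0.000741) and -3.04 for Dtx1 (adjusted p = 0.01), and both calls held under all 24 alternatives, with adjusted p up to 0.0172 for Notch3 and 0.0391 for Dtx1. Without WT CD8 1 the Notch3 value was 5.99, and with the CT010467.1 split as a term the Dtx1 value was -3.74. In each case the normal groups of the 2 organs stood further apart than the LN3 groups. The organ and the kind of normal cell (all thymocytes or enriched splenic CD8 cells) cannot be told apart in this design.

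Of the 67 tested genes of the wider pathway, 3 had a called positive interaction (4.48%) and 1 a called negative one (1.49%), near the 3.29% and 0.895% of all tested genes, so the count is no result about the pathway. The values were 1.41 for Nedd4 (adjusted p = 0.0364), -2.39 for Dtx4 (0.0215), 5.51 for Ptcra (0.0233) and 2.11 for Ccnd3 (0.0491). The call was lost in 15, 11, 11 and 18 of 24 alternatives for Nedd4, Dtx4, Ptcra and Ccnd3. Leaving out a single library ended the call of Nedd4 in 9 of 12 cases (adjusted p = 0.0556 to 0.118), Dtx4 in 8 (0.0518 to 0.0741), Ptcra in 5 (0.0529 to 0.0717) and Ccnd3 in 10 (0.0586 to 0.133).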

How the results depend on the processing

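Each comparison was refitted under 24 alternatives, or 25 for the within-genotype comparisons of organs. Of 1167 refitted differences of the 8 genes, 1099 kept their direction and their side of the threshold, 14 lost a call and 4 gained one, all given above or with the block below, and 50 changed sign. None of those 50 was called in either fit. Counts of members called moved by more than 1.5 times in WT CD8 against WT thymocytes alone, with 1 higher under the block within genotype, and 1 to 2 higher and 1 to 2 lower when single libraries were left out.

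Counts over all genes were less stable. For LN3 spleen against LN3 thymus, with 151 calls, they were 43 with library totals, 652 by DESeq2, 24 by limma-voom, 41 with the CT010467.1 split as a term and 1 without the 3 libraries highest in that gene, and 0 to 255 with single libraries left out. The interaction, with 875, had 1759 by DESeq2 and 463 to 880 with single libraries left out. LN3 spleen against WT CD8, with 6453, had 2838 with the split as a term, which the design leaves few libraries to estimate, and 3999 to 8582. LN3 spleen against WT thymocytes, with 4146, had 2406 with only its groups in the fit and 1930 to 5818, LN3 thymus against WT thymocytes, with 2354, had 1479 and 1203 to 2737, and WT CD8 against WT thymocytes, with 3287, had 1871 to 3284. The cause was not tested.

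The titles give thymus and spleen leukaemia samples the same T-ALL numbers, so a shared leukaemia is possible, but the labels do not state it. Deviations of same-numbered samples from their group means correlated at -0.528 to 0.390 over the group pairs, and no group pair had all 3 above 0.1. For LN3 thymus with LN3 spleen the values of numbers 1 to 3 were -0.150, -0.528 and -0.041. With 3 samples a group this does not show that they were unpaired. With the replicate block, LN3 spleen against LN3 thymus had 31 calls and the interaction 532, and with the block within genotype 38 and 245, and WT CD8 against WT thymocytes 1712. The block ended the call of Notch3 in LN3 spleen against WT thymocytes (1.35, adjusted p = 0.0672), and the block within genotype that of Notch2 in WT CD8 against WT thymocytes (1.38, adjusted p = 0.0916). It made Nrarp -0.44 in LN3 spleen against WT CD8 and Notch4 -0.010 in LN3 spleen against LN3 thymus, and within genotype Notch4 -0.084 there and Hes1 -0.034 in WT CD8 against WT thymocytes.

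The other sign changes were of small or noisy differences. For LN3 spleen against LN3 thymus they were, for Dtx1, 0.042 with median-ratio factors and by DESeq2, 0.0099 with no filter, 0.11 on the deposited log2 values, 0.38 without the 3 high libraries and -0.22 to 0.19 with single libraries left out. For Notch4 they were -0.10 with library totals, -0.044 with upper quartiles, -0.045 by limma-voom and with the split as a term, and -0.34 to 0.31 with libraries left out. Without the 3 high libraries Hes1 was 0.040 and Notch1 0.035, and with libraries left out Notch1 ranged from -0.62 to 0.027 and Notch2 from -0.034 to 0.74. In WT CD8 against WT thymocytes, Hes1 was -0.27 by limma-voom, -0.38 on the deposited values and -0.17 to 0.69 with libraries left out, and Notch4 -0.20 on the deposited values. Against WT thymocytes, Notch4 was 0.10 in LN3 spleen and 0.024 in LN3 thymus, and Nrarp 0.22 in LN3 thymus, without the 3 high libraries. With libraries left out, Notch4 in LN3 spleen against WT thymocytes ran from -0.44 to 0.20 and Nrarp from -0.42 to 2.22. In LN3 spleen against WT CD8, Nrarp was -0.20 by limma-voom, -0.11 on the deposited values, -0.88 with the split as a term and -1.51 to 1.13 with libraries left out, and Dtx1 was -0.022 with the split as a term. In the interaction, Hes1 was 0.012 by limma-voom and 0.13 on the deposited values, Notch4 0.29 on the deposited values, Heyl -0.040 to 1.04 and Nrarp -0.91 to 2.60 with libraries left out.

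Scaling moved the whole distribution: with library totals the median of all genes shifted by -0.20 in the thymus, -0.40 in the spleen, -0.34 for LN3 spleen against WT thymocytes, -0.19 in the interaction and -0.14 between LN3 organs, and with upper quartiles by -0.17, -0.32, -0.25 and -0.16 in the first 4. Higher genes made up 53.8% of the calls in the thymus, 58.0% in the spleen and 57.0% for LN3 spleen against WT thymocytes, but 38.2%, 40.02% and 33.5% with library totals and 41.2%, 41.7% and 38.9% with upper quartiles. Genes near the floor (Hey1, and Heyl in normal cells) are limited by depth, and their fold values depend on few counts.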
